A study of Mus musculus with 2 samples.

Results

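The genes described here are 8 genes of podocytes, the epithelial cells that cover the capillaries of the glomerulus: *Nphs1*, *Kirrel*, *Cd2ap*, *Podxl*, *Ptpro*, *Synpo*, *Actn4* and *Wt1*. They were chosen by symbol, and every probe for mouse genes that carries one of these names on both arrays was taken, which gave 11 of 39416 probes and 8 of 31821 gene names. Kidney RNA of knockout mice, *Cnnm2*fl/fl;*Six2-Cre*, was compared with that of control mice, *Cnnm2*+/+;*Six2-Cre*, at 2 months of age. *Cnnm2* encodes a membrane protein of magnesium handling. The animals of both genotypes carried *Six2-Cre*, in which the promoter of *Six2* drives the recombinase in nephron progenitors, so the cells derived from them, podocytes through distal tubule, are those in which floxed alleles are recombined. The genotypes were hybridised together on 2 arrays of 2 colours, with the knockout labelled Cy5 and the control Cy3 on array 1, and the dyes exchanged on array 2. The sources give neither how many mice were used nor whether the arrays shared their RNA. The arrays were therefore counted as 1 RNA sample per genotype, and the results rest on no test between genotypes. The t-test of the methods and limma, which take the arrays as replicates, were run as alternatives only. Each SD given below with the mean of a probe or gene is the spread of the 2 arrays, which covers labelling and hybridisation and not the spread between animals.

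Podocytes extend foot processes that interlock around the glomerular capillary, and neighbouring foot processes are joined by the slit diaphragm, a cell junction that is part of the filtration barrier. Nephrin and NEPH1, products of *Nphs1* and *Kirrel*, span the slit, and adaptors such as CD2AP tie them to the actin cytoskeleton of the foot process. Loss of these proteins or of alpha-actinin-4 can cause proteinuria and glomerulosclerosis. Of the 8 genes, *Nphs1*, *Kirrel* and *Cd2ap* belong to the slit diaphragm in the strict sense. *Podxl* and *Ptpro* encode proteins of the podocyte surface, *Synpo* and *Actn4* encode actin-binding proteins, and *Wt1* encodes a transcription factor, so the set is called podocyte genes here. *Cd2ap* and *Actn4* are also transcribed in many other cells and *Podxl* in endothelium.

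All 8 genes had at least 1 probe above background, and the transcripts of podocytes were measured in the kidney RNA of both genotypes. The probes of *Nphs1*, *Wt1*, *Podxl* and *Ptpro*, and both probes of *Synpo*, all genes known to be transcribed in podocytes, were well above background, by the scanner software's call, in all 4 channels. Of the 11 probes, 9 had at least 1 genotype that was well above background on each array, and could be compared. None of the 9 passed a mean log2 ratio of 1 in size with the same direction on both arrays, a limit passed by 0.573% of the 24593 probes tested. In the mean of both arrays 7 of the 8 genes were lower in the knockout and 1, *Cd2ap*, was higher, and the means ran from −0.36 for *Wt1* to 0.06. Only 4 of the 8 genes were lower on both arrays, and 4 had opposite directions. Over all 19707 genes tested the median of the means was −0.0081, so means below 0 were no rarer than means above it. Whether these values reflect a change in podocytes was not tested. Since whole kidney was measured, even a lower value would not tell fewer podocytes from less RNA per podocyte.

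The direction was the same on both arrays for 5 of the 9 probes, those of *Nphs1*, *Wt1*, *Ptpro* and both of *Synpo*, which were lower in the knockout, while 14.8% of all probes tested were lower on both arrays. The other 4 probes, for *Kirrel*, *Cd2ap*, *Podxl* and *Actn4*, had opposite directions on the arrays, and 0 probes were higher on both. The count of 5 includes ratios close to 0. Spots of the 245 probes printed 10 times had a median SD of 0.0389 in log2 ratio on array 1 and 0.0388 on array 2. Such an SD covers spots of the same array and not labelling or hybridisation. Between the arrays the SD was 0.30 for *Nphs1* and 0.32 for *Wt1*. With a limit of 2 spot SDs (0.0776) on each array, 2 of the 9 probes, *Nphs1* and *Wt1*, were lower on both, against 7.75% of all probes. The count also varied with the correction of background and dyes. It was 3 probes after normexp and loess, where 11.3% of all probes tested were lower on both arrays. It was 2 after background subtraction and centring on the median, where 12.4% were. Under both settings the ratio of array 1 was within 0.0776 of 0 for *Nphs1* and *Wt1*.

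With the dyes exchanged, a difference that follows the genotype keeps its sign on both arrays and one that follows the dye turns it. A dye contrast was computed for each probe, the log2 ratio of Cy5 over Cy3 averaged over the arrays, in which a difference between genotypes cancels. Ratios of the arrays were negatively correlated over all probes tested (r = −0.55 and rho = −0.59), as a correlation across probes of shared dyes and not across replicates. The SD of the dye contrast was 0.42 and that of the mean log2 ratio 0.228, so the contrast between dyes varied more between probes than the ratio of the genotypes. The labels state the dye of each genotype, and the direction was taken from them. *Cnnm2* was lower on both arrays in the libraries labelled knockout (−2.88 and −2.46), although whether its probe lies in the deleted part was not determined. There were 0 saturated gene spots, and 62.6% to 68% of the 43020 gene spots of a channel were well above background.

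The probes are shown by the last 30 bases of each, 5′ to 3′ on the transcript strand, because the genes have several transcripts and the probe decides which is measured. Positions are those of the array files on mm9. Capitals mark AATAAA, the commonest polyadenylation signal, which was searched on the transcript strand of the 60-base probes. In the probe of *Nphs1* a further copy overlaps the marked one and is left in lower case.
Nphs1 (chr7:31273599-31273628, plus strand): gtgtatgccacacaaAATAAAtaaaatgta
Kirrel A_55_P2266880 (chr3:86882628-86882657, minus strand): gtgtcctttatgcctttcctattctgacat
Kirrel A_55_P2000743 (chr3:86886885-86886914, minus strand): atcccatcccaaggatggtgctctgcgcag
Kirrel A_52_P452569 (chr3:86893479-86893508, minus strand): gctatgagacaaacgttgactattccttct
Cd2ap (chr17:42930324-42930353, minus strand): ctaactgtgatcacagacaagaaatacctt
Podxl (chr6:31470405-31470434, minus strand): cttgtactactttcagagagtaaacttggg
Ptpro (chr6:137411432-137411461, plus strand): gtttatttttctctgtgtccacctgtgtac
Actn4 (chr7:29678289-29678318, minus strand): aaaccaccctctggggatgggagAATAAAa
Wt1 (chr2:105013686-105013715, plus strand): atcttacagtgtattgatgataatactaaa
AATAAA was found in 2 of the 11 probes of the podocyte genes, *Nphs1* and *Actn4*, and in 12.6% of the 39429 gene probes of this length. A stop codon in all 3 forward frames, which leaves no reading frame open through the probe, was found in 4 of the 11 probes (*Nphs1*, *Kirrel* A_55_P2266880, *Synpo* A_51_P123676 and *Actn4*) and in 20.4% of all. The probes of *Synpo* are not shown. An exon or UTR was not assigned, because no annotation of mm9 was used here.

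*Nphs1* encodes nephrin, the immunoglobulin-like protein that forms the core of the slit diaphragm. Its probe (A_55_P1996479, transcript NM_019459) had a processed signal of 555 in the knockout and 599 in the control on array 1, and of 392 and 566 on array 2. The knockout was the lower channel on both arrays. Log2 ratios were −0.11 and −0.53 on arrays 1 and 2, and averaged −0.32 ± 0.30 (SD of 2 arrays), or 80.0% of control. The mean was slightly larger in size than its SD. The dye contrast of the probe was 0.21. A contrast smaller than the mean follows from equal signs on the arrays and is no further check. Neither of a pair of neighbouring transcripts on the array, the antisense *Nphs1as* and the predicted LOC634699, was well above background in any channel.

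*Kirrel* encodes NEPH1, which binds nephrin across the slit, and has 3 probes. The brightest, A_55_P2266880 for transcript variant NM_001170985, had a processed signal of 399.6 in the knockout and 294 in the control on array 1, and of 212 and 405 on array 2. The channel labelled Cy5 was the brighter on both arrays, so the direction turned with the dyes. Its log2 ratios were 0.44 and −0.93, with a mean of −0.25 ± 0.97 and a dye contrast of 0.69, and 9.25% of all probes tested had a dye contrast at least as large in size. The second probe of the same transcript, A_55_P2000743, was well above background in 2 of 4 channels, the Cy5 channel of each array, at 9.53 (knockout) and 11.4 (control), against 5.84 and 4.02 in the Cy3 channels. It was not compared, and its ratios of 0.71 and −1.50 turned in the same way. The probe for the other variant, A_52_P452569 for NM_130867, was not well above background in any of the 4 channels, with signals between 2.29 and 2.69.

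*Cd2ap* encodes an adaptor that binds the tail of nephrin and links it to actin. Its probe (A_52_P175066, NM_009847) had signals of 5671 in the knockout and 4716 in the control on array 1, and 4171 and 4645 on array 2. The ranges of the genotypes overlapped. The log2 ratios were 0.27 and −0.16, with a mean of 0.06 ± 0.30 and a dye contrast of 0.21, so that the mean was smaller than the spread of the arrays.

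**Figure D1:**
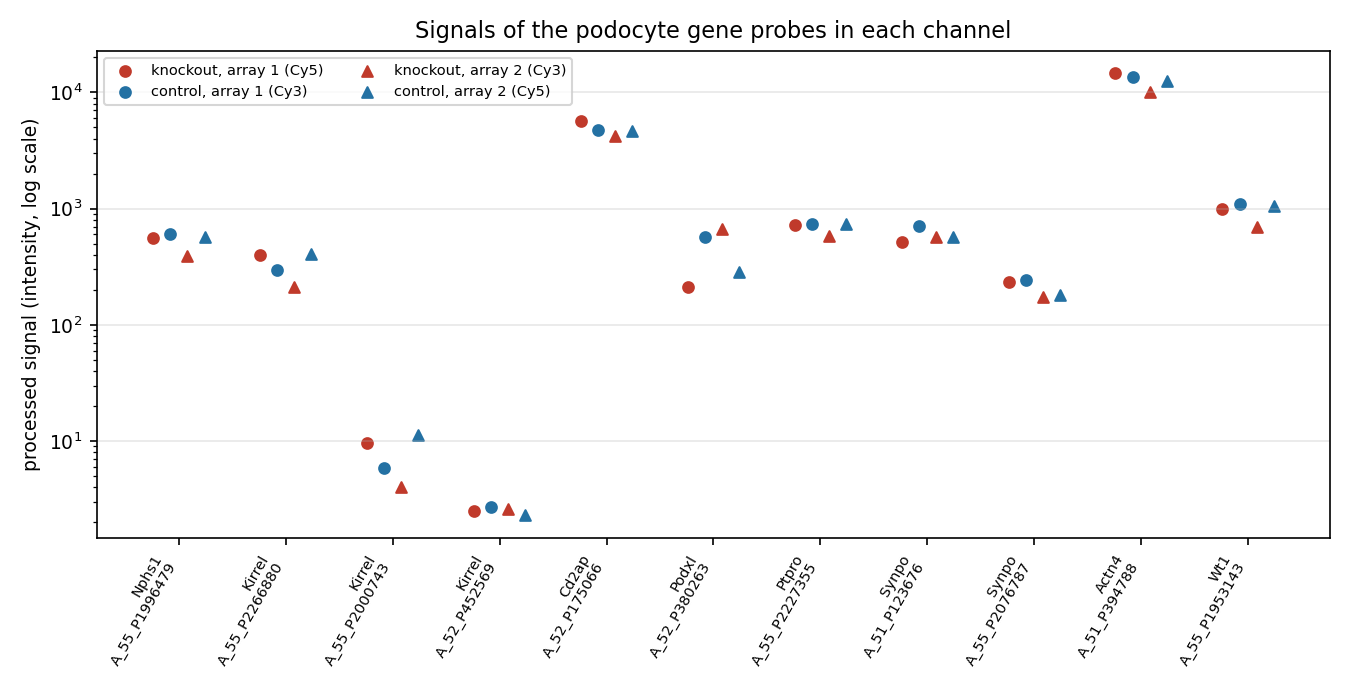
Processed signal (intensity, log scale) of the 11 probes of the podocyte genes in each channel, with knockout in red and control in blue, circles for array 1 and triangles for array 2; levels are to be compared within a probe only. The knockout is the lower channel on both arrays for *Nphs1*, *Wt1*, *Ptpro* and both *Synpo* probes, the 4 values of *Podxl* cross between arrays, and 2 probes of *Kirrel* lie near or below background.

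*Podxl* encodes podocalyxin, the sialylated protein that coats the apical surface of podocytes, and had the widest spread of the genes. Its probe (A_52_P380263, NM_013723) had signals of 210.2 in the knockout and 571 in the control on array 1, and of 666 and 287 on array 2. The Cy3 channel was the brighter on both arrays, at more than 2-fold, whichever genotype it held. The log2 ratios were −1.44 and 1.21, with a mean of −0.11 ± 1.88. On array 1 alone *Podxl* would be counted as lower past the limit of 1, and on array 2 alone as higher. Past that limit in either direction were 5.03% of all probes tested on array 1 alone and 4.37% on array 2 alone. The dye contrast was −1.33, and 1.21% of all probes tested had one at least as large in size. Before correction of background and dyes, the mean signals were 375 for the knockout in Cy5 and 486 for the control in Cy3 on array 1, and 683 for the knockout in Cy3 and 567 for the control in Cy5 on array 2. Cy3 was thus the brighter dye on both arrays also before correction, as for 5.31% of all probes tested, while the other 8 probes compared were brighter in Cy5 on both, as were 87.9% of all. A further probe annotated to ENSMUST00000048101 at chr6:31473453-31473512, in the same stretch of chromosome 6, was not well above background in any channel.

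*Ptpro* encodes a receptor tyrosine phosphatase of the apical podocyte membrane, known as GLEPP1. Its probe (A_55_P2227355, NM_011216) had signals of 725 in the knockout and 741 in the control on array 1, and of 576 and 730.4 on array 2. The knockout was lower on both arrays, but on array 1 the difference was less than the spread of repeated spots. After normexp and loess, and after background subtraction, the ratio of array 1 was 0.046 and 0.096, and the direction was no longer the same on both arrays. The log2 ratios were −0.03 and −0.34, with a mean of −0.19 ± 0.22, so that the mean was smaller than the spread of the arrays.

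*Synpo* encodes synaptopodin, which binds actin in foot processes and is also made in neurons, and has a probe for each of a pair of transcript variants, on chromosome 18. The probe for NM_177340, A_51_P123676, was printed 10 times on each array, and had mean signals of 520.2 in the knockout and 708 in the control on array 1, and of 565 and 569 on array 2. On array 1 all 10 spots were below 0, between −0.47 and −0.42 in log2 ratio (SD 0.013). On array 2 the spots ran from −0.08 to 0.05 (SD 0.040) and 5 of 10 were below 0, so the spots of an array agreed far more closely than the arrays did. The log2 ratios were −0.44 and −0.01, with a mean of −0.23 ± 0.31. The probe for NM_001109975, A_55_P2076787, had signals of 234 and 245 on array 1 and 174 and 179 on array 2. Its ratios of −0.06 and −0.04 (mean −0.05 ± 0.02) were each within 2 spot SDs of 0, and its dye contrast of −0.01 was the smallest of the 9 probes. The variants thus differed mainly on array 1, and that difference was not tested.

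*Actn4* encodes alpha-actinin-4, which cross-links actin filaments and is mutated in an inherited form of glomerulosclerosis. Its probe (A_51_P394788, NM_021895) had signals of 14708 in the knockout and 13581 in the control on array 1, and of 10137 and 12487 on array 2. The control lay between the knockout values of the arrays. The log2 ratios were 0.12 and −0.30, with a mean of −0.09 ± 0.29 and a dye contrast of 0.21.

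*Wt1* encodes the zinc finger transcription factor that maintains the podocyte program, and had the lowest mean of the 8 genes. Its probe (A_55_P1953143, NM_144783) had signals of 1001 in the knockout and 1099 in the control on array 1, and of 693 and 1045 on array 2. The knockout was lower on both arrays. The log2 ratios were −0.13 and −0.59, with a mean of −0.36 ± 0.32, or 77.7% of control, and a dye contrast of 0.23. After background subtraction with centring on the median the ratio of array 1 was 0.01 and the directions of the arrays differed. *Nphs1* was at −0.01 on array 1 and −0.60 on array 2 under that setting. On array 1 both genes were then within 2 spot SDs of 0. The same held after normexp and loess, with −0.05 for *Wt1* and −0.02 for *Nphs1* on array 1.

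**Figure D2:**
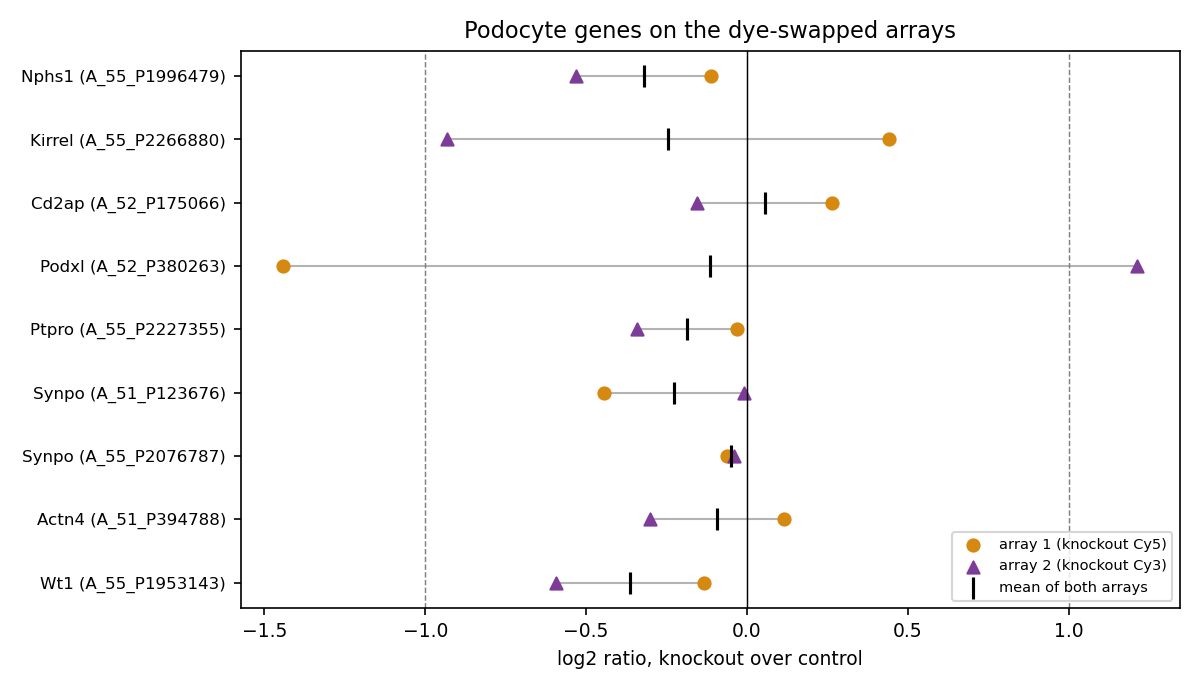
Log2 ratio of knockout over control for the 9 probes compared, with circles for array 1 (knockout Cy5), triangles for array 2 (knockout Cy3), a bar for their mean and dashed lines at −1 and 1. *Podxl* spans from −1.44 to 1.21 and *Kirrel* from −0.93 to 0.44, and both arrays lie left of 0 for *Nphs1*, *Ptpro*, *Wt1* and both *Synpo* probes.

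With the brightest probe for each gene, the median of the 8 mean log2 ratios was −0.21, and that of all 19707 genes tested was −0.0081, with quartiles of −0.10 and 0.085. The median of the 8 was −0.10 after normexp and loess and −0.16 with the median over all probes of a gene. *Wt1* and *Nphs1* lay below the value that bounds the lowest 5 percent of genes (−0.317). Over all probes tested the median was −0.0020 on array 1 and −0.020 on array 2. On array 1 the median of the 8 genes was −0.07, with 5 of them lower in the knockout, and on array 2 it was −0.32, with 7 lower. The sizes thus came mainly from array 2, on which the knockout was labelled Cy3.

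**Figure D3:**
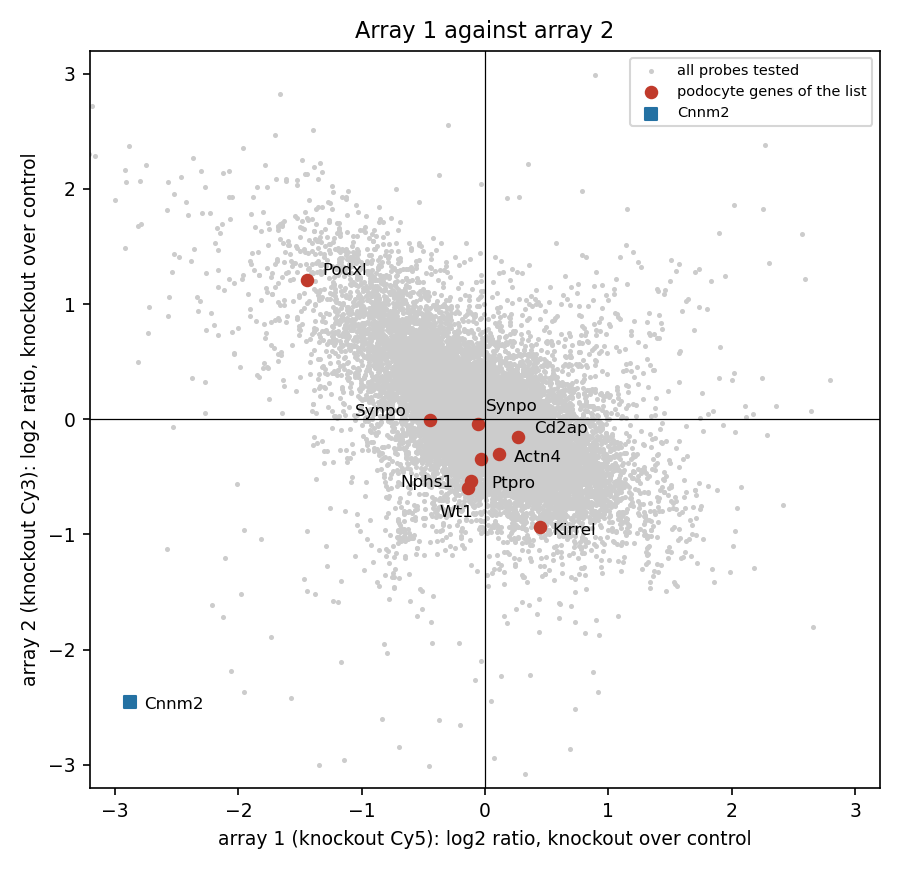
Log2 ratio of knockout over control on array 1 (horizontal axis) against array 2 (vertical axis) for all probes tested (grey), the podocyte genes (red) and *Cnnm2* (blue), with 24 probes outside the plotted range of 3.2. The grey cloud runs from the upper left to the lower right, with r = −0.55. *Podxl* lies in its upper left, and *Cnnm2* lies farthest to the lower left of the named genes.

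The other genes of podocytes were read in 5 lists of 55 genes in all, of which 51 were tested. None passed the limit of 1 in mean log2 ratio, against 0.599% of all genes tested. In the knockout 15 genes (29.4%) were lower on both arrays, against a background of 15.6% of genes, and 4 (7.84%) were higher on both, against 12.1%, while 32 had opposite directions. The median of their mean log2 ratios was −0.09, and 36 of 51 means were below 0, beside a median of −0.0081 over all genes tested. After normexp and loess the median was −0.041 and 12 genes were lower on both arrays, a setting in which 11.3% of all probes were.

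Among 12 tested genes of the slit diaphragm and its adaptors, 3 were lower on both arrays and 2 were higher, with a median of −0.07. The lowest was *Plce1*, a phospholipase C of podocytes, with signals of 17.9 in the knockout and 38.2 in the control on array 1 and 21.7 and 23.0 on array 2, so its mean of −0.59 came from array 1 (−1.10 and −0.08). The atypical cadherin *Fat1* (−0.23 and −0.10) was also lower on both. The scaffold protein *Magi1* (0.06 and 0.15) and the adaptor *Nck2* (0.12 and 0.08) were the genes higher on both. *Kirrel2*, a relative of *Kirrel*, and the cation channel *Trpc6* were not tested, and *Kirrel2* had no genotype well above background on each array, at signals between 2.35 and 6.63.

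For the cytoskeleton of the foot process, 4 of 12 tested genes were lower on both arrays and 1 was higher, with a median of −0.07. The lower genes were the myosin heavy chain *Myh9* (−0.34 and −0.18), *Iqgap1* (−0.26 and −0.16), *Clic5* (−0.16 and −0.12) and *Myo1e* (−0.03 and −0.17). The actin-binding anillin, *Anln*, was higher on both (0.20 and 0.02). Many of these genes, *Myh9* among them, are transcribed in other kidney cells too.

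Of 5 transcription factors of podocytes, 2 were lower on both arrays, *Foxc1* (−0.22 and −0.24) among them, and 3 had opposite directions. Their median was −0.22 in the mean, 0.08 on array 1 and −0.24 on array 2. *Foxc1* had nearly the same ratio under both dyes (mean −0.23 ± 0.02), and *Lmx1b*, the highest of the list, had a mean of 0.08. After normexp and loess, and after background subtraction, 1 of the 5 was lower on both.

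Among 12 genes of the glomerular basement membrane and of adhesion to it, *Lama5*, *Col4a4* and *Cd151* were lower on both arrays, with means between −0.25 and −0.20. No gene of this list was higher on both. The median was −0.02, the lowest mean that of dystroglycan, *Dag1* (−0.27), and the highest that of nephronectin, *Npnt* (0.21), each with opposite directions on the arrays. For 10 further podocyte genes the median was −0.11, with 3 lower on both arrays (*Tdrd5*, *Pla2r1* and *Efnb1*) and 1 higher, the cell cycle inhibitor *Cdkn1c* (0.13 and 0.02). *Sema3g*, a secreted semaphorin, had the lowest mean (−0.35), from ratios of −0.95 and 0.24. Genes named here other than the lowest and highest of a list were named after their values were seen.

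**Figure D4:**
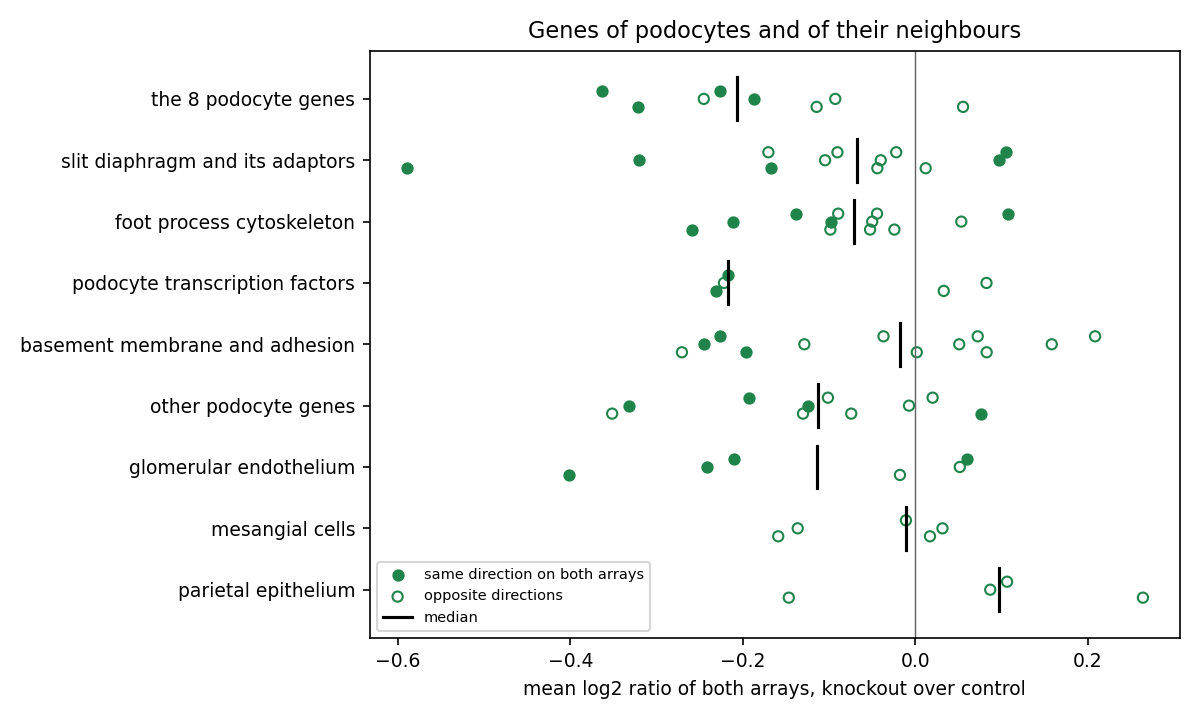
Mean log2 ratio of both arrays, knockout over control, for the tested genes of each list, filled where the direction was the same on both arrays and open where it was opposite, with the median as a bar. The 8 podocyte genes have a median of −0.21, the podocyte lists medians between −0.22 and −0.02, and the lowest point is *Plce1* at −0.59.

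Lists of genes chosen as markers of the other cells of the glomerulus were read beside these values. Whole kidney was measured, and how much of these signals came from cells outside the glomerulus was not tested. Of all genes tested, 15.6% were lower on both arrays and 12.1% were higher on both. In glomerular endothelium 3 of 6 genes were lower on both arrays and 1 was higher. The median of this list was −0.11, and the lowest mean was −0.40 for the VEGF receptor *Flt1* (−0.78 and −0.02). Summed over this list, the knockout had a signal of 18733 and the control 22916 on array 1, and 18722 and 18326 on array 2, most of it from the probes of *Plvap* and *Flt1*. Mesangial markers had 0 of 5 genes lower on both arrays and a median of −0.01, with sums of 3030 and 2816 on array 1 and 2432 and 2813 on array 2. For parietal epithelium 0 of 4 were lower on both, the median was 0.10, and the sums were 3046 and 3457 on array 1 and 2953 and 3027 on array 2, most of it from the probe of *Pax8*. No gene of these lists was at 0, and the part of other cells in the podocyte values was not tested.

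Along the nephron the medians of the marker lists were 0.15 in proximal tubule, −0.07 in thick ascending limb and −0.14 in collecting duct, and 0.01 in leukocytes. In the same order, 3 of 4, 2 of 3, 2 of 3 and 3 of 3 genes tested had opposite directions on the arrays. After normexp and loess these medians were 0.13, 0.016, −0.00018 and 0.0058. Of 3 markers of the distal convoluted tubule, *Pvalb* (−1.75 ± 0.33) and *Trpm6* (−1.40 ± 0.24) were past the limit of 1 and lower on both arrays. After normexp and loess 1 of the 3, *Pvalb*, was past it, and *Trpm6* was at −0.98. Both are genes that the study itself picked from these arrays, so they are no independent evidence on the segment. *Slc12a3*, the sodium chloride cotransporter of that segment, had ratios of −0.78 and 0.19.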

How the data were processed

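Each array was a 2-colour Agilent whole mouse genome oligonucleotide array hybridised with kidney RNA of both genotypes. The authors deposited scanner output, which per the file headers came from Agilent Feature Extraction 10.7.3.1, while the submitters' processing notes name 10.5.1.1. Intensity was deposited by the authors in raw form, with background subtracted, and as a processed signal in which the software had corrected background and dye effects. The authors' files further hold log10 ratios of red over green, and a matrix of log10 ratios, within 0.00492 (array 1) and 0.00483 (array 2) of the scanner's after turning to knockout over control. Its columns had medians of 0.

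Log2 ratios of processed signals were turned by the dye labels and averaged over spots, leaving out 141 and 175 marked gene spots. A probe was tested if the same genotype, for at least 1 of them, was well above background on both arrays (24593 probes). The brightest probe stood for a gene (19707 genes). A call needed a mean of 1 or more in size and an equal sign on the arrays. Python 3.11.15, R 4.3.3 and limma 3.58.1 were used, and the calls were tested on simulated data. Alternatives were other background and dye corrections, the deposited ratios, other limits on dim probes, marked spots kept, each array alone, other probe rules, the t-test of the methods and limma. The members and lists were chosen with earlier results of these data known. Named were all members, *Cnnm2*, genes past the limit, and the lowest and highest gene of each podocyte list, and some genes of the lists are not reported here by name. The small number of arrays limits the precision.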

Additional observations from a re-analysis of the deposited data

How the results depend on the processing

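No analysis paired by animal was possible because the 2 arrays count as 1 sample of each genotype. The methods' t-test, given last, pairs the channels of each array and not animals. Of the values that answer a comparison, 205 moved by less than the spread of the arrays or, for counts, by no more than 1.5 times, and 23 moved further. This tally is a weak measure of stability. Some alternatives, such as the deposited ratios and marked spots kept, gave nearly the same values. The limit was also wide enough that some medians changed sign within it, as for slit diaphragm genes (0.08 on array 1 alone) and cytoskeleton genes (0.03 on array 2 alone). With both arrays, the mean log2 ratio ran over the alternatives from −0.32 to −0.18 for *Nphs1*, from −0.36 to −0.26 for *Wt1*, from −0.25 to −0.05 for *Kirrel*, from −0.19 to −0.10 for *Ptpro*, and from −0.23 to −0.15 for *Synpo* A_51_P123676. *Synpo* A_55_P2076787 moved to 0.01 after normexp and loess and to −0.01 after background subtraction and after loess alone. Of the podocyte gene probes, 3 were lower and 1 higher on both arrays after normexp and loess, where 11.3% of all probes tested were lower. After background subtraction 2 were lower, against 12.4% of all probes. With a limit of 2 spot SDs, an alternative chosen after seeing the data, 2 were lower, against 7.75% of all probes. On each array alone 1 probe, *Podxl*, was past the limit, in opposite directions, against 5.03% of all probes on array 1 and 4.37% on array 2. Without 1 array, the median of the 8 genes ran from −0.32 to −0.07, of slit diaphragm genes from −0.15 to 0.08, of cytoskeleton genes from −0.27 to 0.03, of transcription factors from −0.24 to 0.075, of basement membrane genes from −0.28 to −0.0090, and of all podocyte lists it was −0.13 on each array. The number of genes past the limit without 1 array ran from 0 to 1 among slit diaphragm genes and in all podocyte lists. With no limit on dim probes it was 1 in both, *Kirrel2*, which was not well above background. Of the transcription factors, 1 was lower on both arrays after normexp and after background subtraction. The median of all podocyte lists was −0.041 after normexp and loess, −0.080 after background subtraction, −0.058 after loess alone, and −0.090 with the matrix, with other limits on dim probes and with the median over probes. The methods' t-test with p under 0.1 and a mean fold over 2 called 47 probes, of which 0 were podocyte genes, and 0 after Benjamini-Hochberg adjustment. limma called 0 probes at an adjusted p of 0.05 (271 at an unadjusted p of 0.05, 0 of them podocyte genes). Since limma also called none of the changes put into simulated data, its count says nothing about these genes. The number of all probes past the limit was 141 here, 21 after normexp and loess and 30 after loess alone. The cause was not tested.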
